A study of Mus musculus with 16 samples.

Results

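The genes described here code for the conjugating enzymes of phase II metabolism: the UDP-glycosyltransferases (Ugt), the cytosolic glutathione transferases (Gst) and the sulfotransferases (Sult). They were chosen by name alone, as every gene whose symbol starts with Ugt1a, Ugt2, Ugt3 or Sult, or with Gst and a class letter and number, and 6 pseudogene names were left out. This gave 61 of the 47729 genes in the count tables. RNA came from endothelial cells (ECs), hepatic stellate cells (HSCs), Kupffer cells and hepatocytes of unchallenged adult mouse liver, with 16 libraries in all and 2 for each cell type and genotype label. KO-labelled mice carried floxed Zeb2 alleles and the tamoxifen-inducible Cdh5-CreERT2 transgene, which was used to delete Zeb2 in endothelium. WT mice were littermates without Cre. Both received tamoxifen at 2 mg per day for 5 days. The sort took HSCs by their ultraviolet autofluorescence, Kupffer cells by F4/80 and ECs by a pan-endothelial antigen, while hepatocytes were separated by centrifugation. Libraries of different cell types may come from the same liver, and nothing in the labels says whether the 2 libraries of a group came from separate mice, so p-values measure the spread between these libraries.

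Conjugation makes lipophilic compounds soluble enough to leave the body in bile or urine. Ugt1a and Ugt2 enzymes sit in the endoplasmic reticulum and attach glucuronic acid to bilirubin, steroids, bile acids and drugs. Gst enzymes are mostly cytosolic and join glutathione to electrophiles such as lipid peroxidation products, and Sult enzymes transfer sulfate to phenols, steroids and bile acids. The hepatocyte is known as the main site of all these reactions in the liver.

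Counts at the Ugt1a locus depend on sequence, so it is shown first. The 9 Ugt1a genes lie on chromosome 1 (GRCm38) and join a first exon of their own to the same 4 downstream exons, of which exon 2 is at chr1:88215044-88215175. A read is assigned to 1 gene only through the first exon. The lines below give, from the GRCm38 reference, the last 40 bases of each coding first exon in lower case and the first 30 bases of the shared exon 2 in capitals.
Ugt1a9: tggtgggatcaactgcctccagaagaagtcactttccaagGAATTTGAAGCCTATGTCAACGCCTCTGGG
Ugt1a1: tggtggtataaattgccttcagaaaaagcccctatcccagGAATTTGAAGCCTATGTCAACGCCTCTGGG
Ugt1a5: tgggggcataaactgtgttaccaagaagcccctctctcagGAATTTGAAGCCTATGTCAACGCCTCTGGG
Ugt1a2: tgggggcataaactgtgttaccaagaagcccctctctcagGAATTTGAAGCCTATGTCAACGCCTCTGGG
Ugt1a6b: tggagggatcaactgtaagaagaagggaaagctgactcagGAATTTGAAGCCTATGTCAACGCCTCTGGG
Ugt1a5 and Ugt1a2 have the same letters over this whole stretch, so a read covering only this junction could not be given to either. Of all 50-base words in the transcripts, between 19.8% (Ugt1a1) and 47.9% (Ugt1a6a) were found in no other gene for the members of this locus. Ugt1a1 had 430 such words although its coding first exon spans 870 bases, so part of that exon's sequence also occurs in another gene. Gstp1 and Gstp2 shared 33.7% and 49.1% of their words with each other, and Ugt2b5 and Ugt2b38 shared 34.8% and 34.1%, so the split of reads within these pairs is uncertain. Gsta1 and Gsta2 shared 46.6% and 36.0%. Ugt1a6b shared 79.6% of its words with Ugt1a6a and had 20.2% of its own, so its count is uncertain too. Reads that aligned to several places numbered 44.3 to 113 for every 100 reads on genes and were most frequent in hepatocytes, at 74.5 to 113.

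The libraries held between 12872706 and 15690506 reads on genes. Levels are given as CPM (counts-per-million of the reads on genes), and 3 reads, the smallest count taken as detected, correspond to 0.191 to 0.233 CPM. The labels were checked against markers. Markers of ECs summed to 17717 to 23558 CPM in ECs and at most 1385 CPM elsewhere. Those of Kupffer cells summed to 45474 to 58841 CPM in Kupffer cells and at most 2548 CPM elsewhere, and those of HSCs to 75899.9 to 90668 CPM in HSCs and at most 1507 CPM elsewhere. The 14 hepatocyte markers summed to 137019 to 149699 CPM in hepatocytes but also to 757 to 33075 CPM in the nonparenchymal libraries. Among the EC markers, Cdh5, the gene that names the Cre driver, was at 234, 171, 177 and 165 CPM in ECs. In Kupffer cells it was at 147, 172, 149 and 160 CPM, and in HSCs at 1.73 to 12.4 CPM. Cre activity in Kupffer cells was not tested. Xist was at 0 and Y-linked genes were counted in every library. The targeted gene, Zeb2, stood at 106 and 106 CPM in WT ECs and at 199 and 130.1 CPM in ECs labelled KO. It was therefore not lower in the libraries labelled KO, and the count covers the whole gene, not the deleted exon alone. Groups are named by their labels throughout.

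Of the 61 members, 53 reached 3 reads in at least 1 library. The 8 others were Sult1c1, Sult2a3, Sult2a4, Sult2a5, Sult2a6, Ugt1a2, Ugt2a1 and Ugt2a2. Sult2a1 and Sult3a1, known as female-predominant genes of mouse liver, averaged 0.0674 and 0.319 CPM in hepatocytes. The mean level was highest in hepatocytes for 41 of the 53 detected members, in Kupffer cells for 5, in HSCs for 4 and in ECs for 3. Taken as a sum, the members made up 12108, 12394, 12206 and 12744 CPM in the hepatocyte libraries. The sum was 963 to 2872 CPM in ECs, 1829 to 2497 CPM in HSCs and 1065 to 1643 CPM in Kupffer cells. Hepatocytes thus stood above every other library, without overlap.

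**Figure D1:**
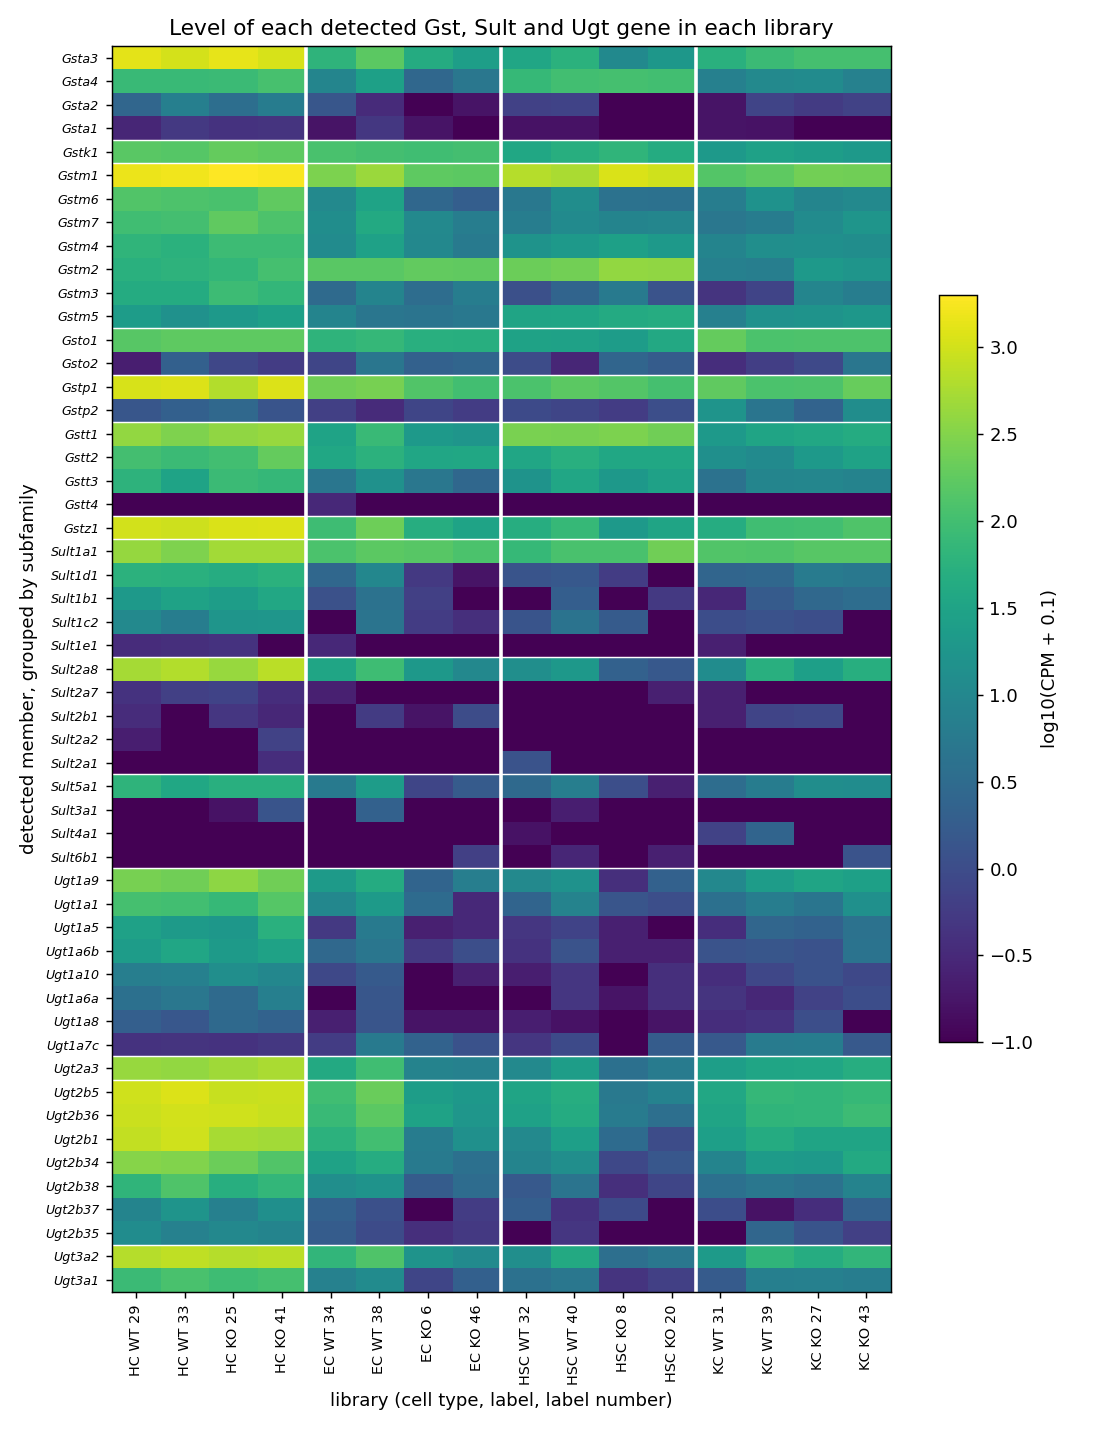
Level of the 53 detected members (rows, grouped by subfamily) in the 16 libraries (columns) as log10(CPM + 0.1), with white lines between cell types. The hepatocyte columns are brightest for most rows, and Gsta4, Gstm2, Gstm5 and Gstp2 are rows where another cell type matches or exceeds them.

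Among the Ugt genes, Ugt2b genes held the largest summed level in hepatocytes, at 2497 to 3618 CPM. Ugt2b5, which glucuronidates steroids, had 958 and 1176 CPM in WT and 849 and 903 CPM in KO-labelled hepatocytes. In ECs it was at 97.3 and 204 CPM under the WT label and at 24.3 and 19.5 CPM under the KO label. HSCs held 31.7 and 47.7 CPM (WT) and 5.46 and 7.88 CPM (KO label), and Kupffer cells 37.6, 73.3, 66.1 and 75.0 CPM. Every hepatocyte library was thus several times above every other library, and the nonparenchymal libraries overlapped between cell types. Ugt2b36 averaged 946 ± 63.3 CPM and Ugt2b1 701 ± 223 CPM in hepatocytes (SD, n = 4). Ugt2a3, the 1 detected Ugt2a gene, had 470.3 ± 71.3 CPM, and Ugt3a2 and Ugt3a1 had 706 ± 49.5 and 99.9 ± 14.1 CPM (SD, n = 4). Per kilobase of exon that no other gene shares, Ugt2b5 stood at 523 CPM, Ugt2b36 at 459 CPM, Ugt2b1 at 273 CPM and Ugt2a3 at 222 CPM in hepatocytes.

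Within the Ugt1a locus, Ugt1a9 and Ugt1a1 were the leading genes of the hepatocyte libraries. Ugt1a1, the enzyme that conjugates bilirubin, had 107 and 100.4 CPM in WT and 74.5 and 148 CPM in KO-labelled hepatocytes. It was at 0.209 to 21.7 CPM in ECs, 0.968 to 8.13 CPM in HSCs and 3.82 to 14.2 CPM in Kupffer cells. For Ugt1a9, which acts on phenols, the mean was 272 ± 62.9 CPM in hepatocytes (SD, n = 4). Scaled by the length of their own exons, the levels of Ugt1a9 and Ugt1a1 were 309 and 279.7 CPM per kilobase, so that the gap in CPM between these genes was small per length. Ugt1a5 had 30.6 ± 15.4 CPM and Ugt1a6b 27.4 ± 6.12 CPM (SD, n = 4), and the split of reads between Ugt1a6b and Ugt1a6a is uncertain. Ugt1a7c was the exception of the locus, with 0.319 to 0.404 CPM in hepatocytes against 0.488 to 5.90 CPM in ECs and 1.48 to 6.40 CPM in Kupffer cells. Its difference between hepatocytes and Kupffer cells was -2.36 ± 1.11 (log2, SE) and did not pass the edgeR quasi-likelihood test (adjusted p = 0.0899), whereas with library totals alone it was -3.44 and passed (adjusted p = 0.0217). Ugt1a7c was named after its values were seen.

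The glutathione transferases were more evenly spread. The mu class, a cluster on chromosome 3, summed to 1919 to 2543 CPM in hepatocytes, 896 to 1639.8 CPM in HSCs, 369 to 713 CPM in ECs and 176 to 324 CPM in Kupffer cells. Gstm1, its most abundant gene, had 1503, 1623, 1986 and 1805 CPM in hepatocytes. In HSCs it had 669 and 576 CPM under the WT label and 1148 and 958 CPM under the KO label, against 166 to 444 CPM in ECs and 141 to 244 CPM in Kupffer cells. The order hepatocytes, HSCs, ECs and Kupffer cells held in the means, and the libraries of ECs and Kupffer cells overlapped. Gstm2 showed another order. The gene lies at chr3:107981702-107986453 (- strand, GRCm38, ENSMUSG00000040562). It had 215 and 239.5 CPM in WT HSCs and 403 and 382 CPM in HSCs labelled KO. ECs held 156, 157, 182 and 177 CPM, hepatocytes 54.2, 59.9, 71.2 and 106 CPM, and Kupffer cells 7.31, 6.85, 20.1 and 17.5 CPM. No library of one cell type overlapped with a library of another for this gene. Gstm6 and Gstm7 averaged 139 ± 27.0 and 124 ± 36.5 CPM in hepatocytes (SD, n = 4) and at most 40.3 CPM elsewhere. Gstm5 (named after its values were seen) was also highest in HSCs, with 32.0 to 46.1 CPM, against 14.7 to 27.4 CPM in hepatocytes, 7.44 to 19.1 CPM in Kupffer cells and 4.39 to 8.51 CPM in ECs. Part of its exon sequence overlaps 4933431E20Rik.

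**Figure D2:**
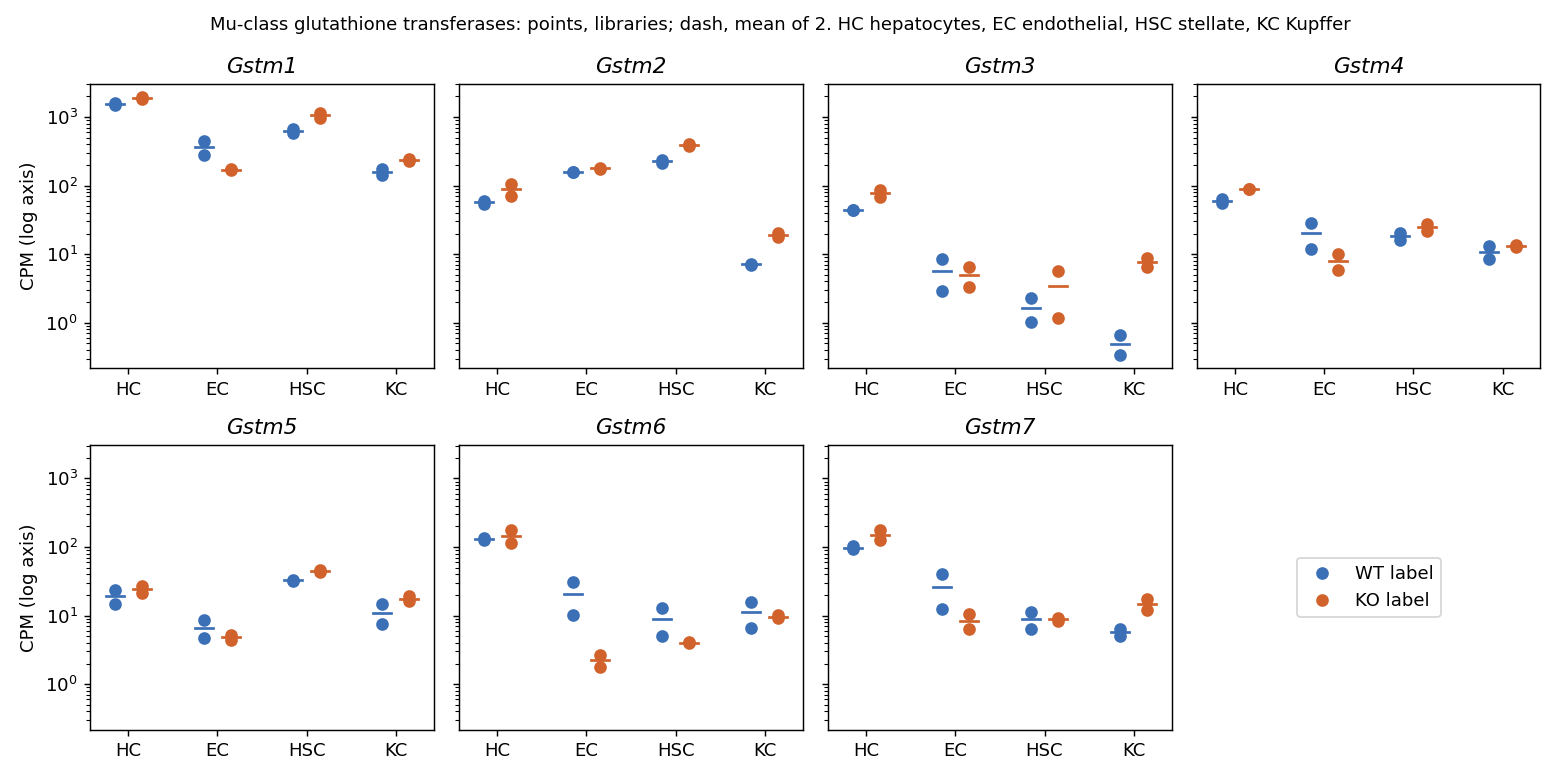
CPM (log axis) of the 7 mu-class genes by cell type, with 1 point per library, blue for the WT label and orange for the KO label, and a dash at the mean of 2. Gstm2 is highest in HSCs at 215 to 403 CPM and lowest in Kupffer cells at 6.85 to 20.1 CPM, whereas Gstm6 and Gstm7 are highest in hepatocytes.

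In the alpha class, Gsta3, which conjugates aflatoxin epoxide in mice, had 1339.6, 1046, 1378 and 1108 CPM in hepatocytes and 10.7 to 164 CPM elsewhere. Gsta4, which detoxifies the lipid peroxidation product 4-hydroxynonenal, differed. Its level was 75.3, 99.7, 106 and 99.7 CPM in HSCs and 80.4, 82.7, 85.9 and 109 CPM in hepatocytes, with 2.65 to 27.9 CPM in ECs and a mean of 9.15 ± 2.08 CPM in Kupffer cells (SD, n = 4). HSC and hepatocyte libraries overlapped on this scale. Gstt1, a theta-class enzyme that acts on halogenated small molecules, had 269, 258, 286 and 235 CPM in HSCs against 290.2 to 428 CPM in hepatocytes. It was at 17.3 to 80.6 CPM in ECs and at 20.2 to 44.5 CPM in Kupffer cells. Gstt2 and Gstt3 averaged 120.1 ± 49.5 and 61.9 ± 22.8 CPM in hepatocytes (SD, n = 4). Gsto1 of the omega class, a thioltransferase, had 193, 123, 127 and 124 CPM in Kupffer cells and 154 to 173 CPM in hepatocytes, against 49.6 to 72.6 CPM in ECs and 23.4 to 39.3 CPM in HSCs. Gstk1, the peroxisomal and mitochondrial kappa enzyme, had 95.3 to 115 CPM in ECs, 36.2 to 65.5 CPM in HSCs, 19.9 to 29.2 CPM in Kupffer cells and 144 to 189.5 CPM in hepatocytes, with no overlap between cell types. Gsta2 and Gsto2 were low, with hepatocyte means of 4.85 ± 2.22 and 0.821 ± 0.807 CPM (SD, n = 4). Gstz1, which isomerizes maleylacetoacetate in tyrosine breakdown, averaged 1070.4 ± 108 CPM in hepatocytes (SD, n = 4) and at most 219.8 CPM in any other library.

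Gstp1, the more abundant pi-class gene, had 1023 ± 259.7 CPM in hepatocytes (SD, n = 4) and 97.7 to 259 CPM in the other libraries. Gstp2 had its highest mean in Kupffer cells, with 16.6, 4.57, 2.24 and 12.6 CPM there and 0.233 to 2.71 CPM in all other libraries. One Kupffer cell library therefore overlapped with hepatocytes. The difference between hepatocytes and Kupffer cells did not pass in edgeR. With the WT libraries alone it was -1.75 ± 0.87 (log2, SE, adjusted p = 0.141, edgeR). Since both genes share sequence, reads within the shared stretches could not be split between them.

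Of the sulfotransferases, Sult2a8, which acts on bile acids, led in hepatocytes with 522 and 634 CPM in WT and 429 and 711 CPM under the KO label. It had 10.2 to 93.4 CPM in ECs, 1.45 to 19.3 CPM in HSCs and 12.0 to 51.6 CPM in Kupffer cells. Sult1a1, a phenol sulfotransferase, was at 298 to 510.3 CPM in hepatocytes and was the sulfotransferase with the highest level in all nonparenchymal libraries, at 118 to 165 CPM in ECs, 75.4 to 232 CPM in HSCs and 132 to 149.7 CPM in Kupffer cells. Those 3 cell types overlapped. Sult1d1, which sulfates catecholamines, averaged 53.6 ± 5.33 CPM, Sult5a1 50.8 ± 10.9 CPM and Sult1b1 28.2 ± 7.74 CPM in hepatocytes (SD, n = 4), and none of the 3 passed 24.1 CPM in another cell type. Sult2a7 and Sult2b1 averaged 0.445 ± 0.180 and 0.211 ± 0.161 CPM in hepatocytes (SD, n = 4).

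All genes were then tested between cell types with edgeR's quasi-likelihood test over the 16 libraries, averaging over labels. Of the 45 members that passed the filter on low counts, 40 were higher in hepatocytes than in ECs, where 25.5% of all 17214 genes tested were, and none was lower (background 33.2%). Against HSCs 40 were higher (background 24.4%) and Gstm2 was lower (background 34%). Against Kupffer cells 40 were higher (background 26.3%) and none was lower (background 29.3%). The median difference of the tested members was 5.13 against ECs, 5.76 against HSCs and 4.57 against Kupffer cells (log2), beside medians over all genes of -0.54, -0.60 and -0.24. Gstm2 was lower in hepatocytes than in HSCs by -0.93 ± 0.18 (log2, SE, adjusted p = 0.000977). For Gsta4 the same difference was 1.05 ± 0.31 (adjusted p = 0.0128), for Gstt1 1.64 ± 0.26 and for Gstm1 2.22 ± 0.19, all far below the median. These differences depend on the scale. The trimmed-mean scaling of edgeR raised the differences between hepatocytes and ECs, HSCs and Kupffer cells by a median of 1.36, 1.11 and 1.04 (log2) relative to library totals alone. With totals alone Gstm2 was lower in hepatocytes than in ECs (-1.24 against 0.14), Gstm5 was lower than in HSCs (-0.82 against 0.30), and Gsta4 was at -0.09 against HSCs. Gstt1 was then at 0.51 against HSCs (adjusted p = 0.110, edgeR), and Gsto1 and Gstm5 at 0.24 and 0.63 against Kupffer cells (adjusted p = 0.304 and 0.0652), so that these calls were lost. Over the 6 comparisons of cell types, 11 member calls were lost and 8 gained with totals alone.

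Between nonparenchymal cell types, 19 of the 45 tested members differed between ECs and HSCs, 12 of them higher in ECs (background 13.3%) and 7 higher in HSCs (background 12.8%). Those higher in HSCs were Gsta4, Gstm1, Gstm2, Gstm4, Gstm5, Gstt1 and Gstt3. Gsta4 differed most, by -3.75 ± 0.35, and Gstt1 by -3.27 ± 0.27 (log2, ECs minus HSCs, SE, adjusted p = 1.01e-05 and 4.15e-06 in edgeR). Those higher in ECs were Gsta3, Gstk1, Gsto1, Sult2a8 and 8 Ugt genes. With the WT libraries alone 3 of these calls were made, namely Gsta4, Gstm5 and Gstt1. Kupffer cells had lower levels than ECs for Gstk1, Gstm2 and Gstt2 (background 17.5%) and higher levels, averaged over labels, for Gstm5, Gsto1, Gstp2, Sult1d1, Ugt2a3 and Ugt2b34 (background 14.5%). The last 3 of these were lower in the ECs labelled KO than in WT ECs by their values, and with the WT libraries alone they lay the other way, at 0.81 ± 0.48 for Ugt2a3, 0.95 ± 0.42 for Ugt2b34 and 0.89 ± 0.52 for Sult1d1 (log2, ECs minus Kupffer cells, SE, adjusted p = 0.294, 0.173 and 0.289, edgeR). With library totals alone none of the 3 passed. For Gstm2 the difference of ECs from Kupffer cells was 3.54 ± 0.20, for Gsto1 -1.60 ± 0.24 and for Gstp2 -4.52 ± 0.76 (log2, SE, adjusted p = 3.79e-07, 0.000257 and 0.000706 in edgeR). Against Kupffer cells HSCs were higher for 9 members (background 22.3%) and lower for 19 (background 20.6%), the 9 being Gsta4, Gstk1, Gstm1, Gstm2, Gstm4, Gstm5, Gstt1, Gstt2 and Gstt3. The members listed in these comparisons beyond the rule for named genes were named after their values were seen. Gstm2 differed most among the 9, by 4.62 ± 0.21 (log2, SE, adjusted p = 1.26e-07 in edgeR). With the WT libraries alone, and so fewer samples in the fit, only Gsto1 and Gstp2 were called lower in HSCs than in Kupffer cells. Of the 9 called higher, Gstk1, Gstm4 and Gstt3 no longer passed.

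Since hepatocyte transcripts were present in every nonparenchymal library, each member's level was expressed as a percent of its mean in WT hepatocytes and set beside the 14 hepatocyte markers in the same library. The markers had medians of 11.1% and 22.2% in WT ECs, 2.44% and 1.93% in ECs labelled KO, 3.36% and 7.34% in WT HSCs, 0.467% and 1.10% in HSCs labelled KO, 5.21% and 8.21% in WT Kupffer cells and 9.22% and 10.9% in Kupffer cells labelled KO. Of the 42 members with at least 1 CPM in WT hepatocytes, 14 lay above every marker in all 4 HSC libraries, 9 in all 4 Kupffer cell libraries and 7 in all 4 EC libraries. The share of all genes that lay above every marker was not computed. These counts therefore have no background and do not set the members apart from other genes. Gstm4, Gstm2, Gsto1, Gsto2, Gstt2 and Sult1a1 were among them in all 3 cell types. Gsto2 averaged 1.05 CPM in WT hepatocytes, so its percentages rest on few reads. With all 4 hepatocyte libraries as the reference, 5 of the 9 were above in Kupffer cells, namely Gstm5, Gsto1, Gsto2, Gstp2 and Sult1a1, and Gstm4 was no longer above in ECs. Gstm2 reached 274% to 319% of its hepatocyte level in ECs, 378% to 707% in HSCs and 12.0% to 35.3% in Kupffer cells. Gsta4 reached 92.4% to 129.5% and Gstt1 68.2% to 83.0% in HSCs, Gsto1 75.2% to 119% in Kupffer cells and Gstk1 63.2% to 76.6% in ECs. These percentages rest on library totals. Trimmed-mean scaling raised hepatocytes against ECs, HSCs and Kupffer cells by a median of 1.36, 1.11 and 1.04 (log2). On that scale the percentages would be lower, for members and markers alike. No Ugt gene was among the members above every marker in all libraries of a cell type. Whether hepatocyte RNA accounts for the levels of the Ugt genes in these libraries was not tested.

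**Figure D3:**
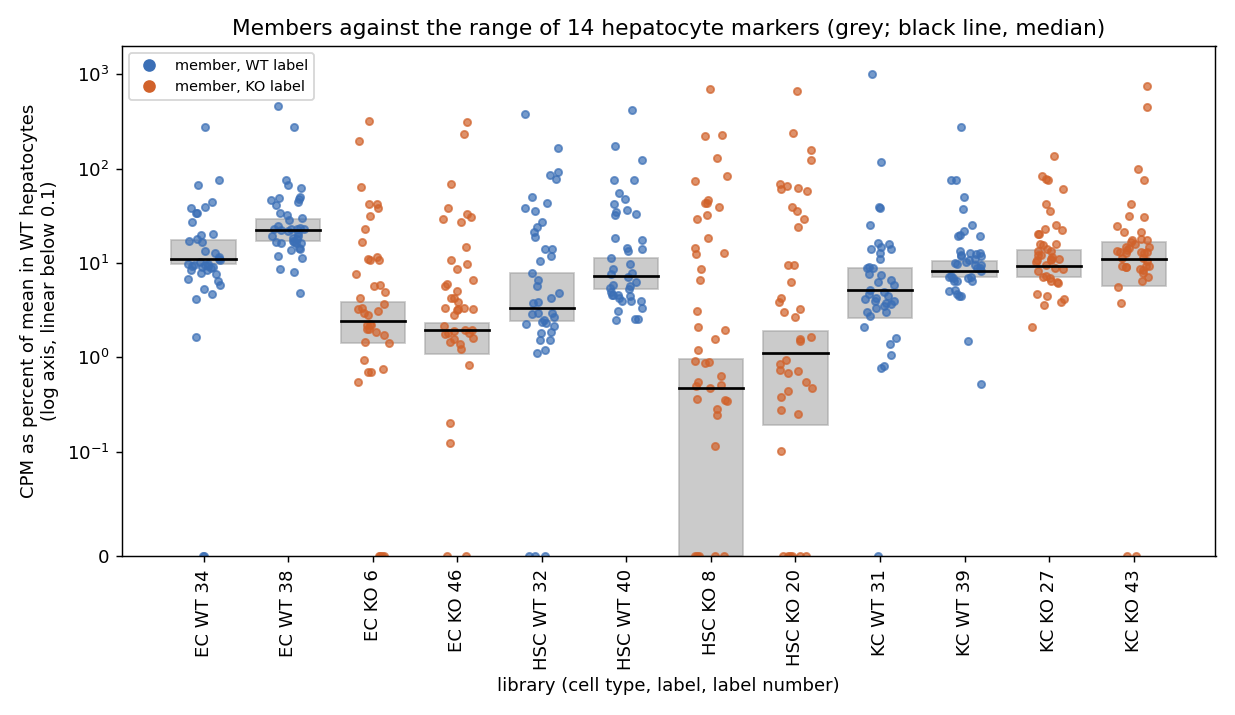
Level of 42 members in each of 12 nonparenchymal libraries as percent of the mean in WT hepatocytes (log axis, linear below 0.1), with blue points for the WT and orange for the KO label, and grey boxes for the range and black lines for the median of 14 hepatocyte markers. Between 12 and 25 of the 42 members lie above the box in a library, among them Gstm2 in ECs and HSCs at 274% to 707%, and the boxes of ECs and HSCs are lower under the KO label. The share of all genes above the box was not computed, and percentages use CPM from library totals.

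Upstream sequence was examined because most members shared a cell type. RefSeq transcription starts (GRCm38.p6) were matched for 53 of 61 members, with 64 promoters of 250 bases. The letters GTTAAT, one arm of the palindromic binding motif of the hepatocyte factor HNF1, were found on either strand in 13 of 64 (20.3%), against 6.43% of all 32851 promoters. TGACNNNGC, the core of the antioxidant response element, was in 3 of 64 (4.69%, against 10.2%), and TATAAA was in 11 of 64 (17.2%, against 12.4%). None of the 3 motifs contains another. The promoters below, 5' to 3' up to the start, show 2 hepatocyte genes with GTTAAT or its reverse complement in capitals, and Gstm2, highest in HSCs, in which none of the 3 motifs was found. They lie at chr1:88070529-88070778 (plus strand, Ugt1a9), chr5:87337196-87337445 (minus, Ugt2a3) and chr3:107986421-107986670 (minus, Gstm2).
Ugt1a9: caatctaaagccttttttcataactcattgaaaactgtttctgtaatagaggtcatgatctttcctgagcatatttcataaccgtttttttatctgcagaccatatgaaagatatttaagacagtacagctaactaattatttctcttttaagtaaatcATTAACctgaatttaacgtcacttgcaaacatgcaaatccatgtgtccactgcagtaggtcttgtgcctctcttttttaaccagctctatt
Ugt2a3: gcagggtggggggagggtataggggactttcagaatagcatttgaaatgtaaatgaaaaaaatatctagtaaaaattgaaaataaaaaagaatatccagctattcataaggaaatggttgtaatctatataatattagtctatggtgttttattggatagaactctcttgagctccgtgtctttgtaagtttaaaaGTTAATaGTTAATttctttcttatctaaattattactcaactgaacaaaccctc
Gstm2: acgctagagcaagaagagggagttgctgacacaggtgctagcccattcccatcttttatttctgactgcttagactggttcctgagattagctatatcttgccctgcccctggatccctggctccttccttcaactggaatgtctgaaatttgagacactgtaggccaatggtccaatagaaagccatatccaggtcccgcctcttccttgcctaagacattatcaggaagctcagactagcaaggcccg
Ugt2a3 holds the motif at 2 neighbouring places. Members with GTTAAT were Gsta3, Sult1a1, Sult1d1, Sult2a3, Sult2a4, Sult2a5, Sult2a6, Ugt1a1, Ugt1a10, Ugt1a6a, Ugt1a9, Ugt2a3 and Ugt3a1, and the group includes 4 that were not detected. No Ugt2b gene was among these members. In the most upstream promoters of Gstm1 and Gstm3, genes with their highest mean in hepatocytes, none of the 3 motifs was found either. Another promoter of Gstm1 held TATAAA. A match describes letters and not binding.

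The labels were compared within each cell type next, to ask which conjugation genes differed between KO and WT. In ECs 6 of the 37 members tested were lower under the KO label and none was higher, where 1.97% of all 14631 genes tested were lower and 0.116% higher. All 6 were Ugt genes, among them Ugt2b34 (ENSMUSG00000029260) at chr5:86889767-86906937 and Ugt3a2 (ENSMUSG00000049152) at chr15:9335550-9370955 (GRCm38). Ugt2b34 had 30.4 and 45.3 CPM in WT ECs and 5.78 and 3.82 CPM under the KO label, a log2 difference of -2.98 ± 0.36 (SE, adjusted p = 0.029, edgeR). Ugt2a3 fell from 41.0 and 95.6 CPM to 8.29 and 7.58 CPM, by -3.10 ± 0.44, and Ugt3a2 from 67.3 and 128 CPM to 16.0 and 11.3 CPM, by -2.84 ± 0.37 (log2, SE). The differences of Ugt2b5, Ugt2b36 and Ugt2b1 were -2.78 ± 0.37, -2.35 ± 0.39 and -2.92 ± 0.50 (log2, SE). The labels did not overlap for any of the 6. In all, 29 of 37 tested members were lower in both KO-labelled libraries than in either WT library (background 24.4%) and 1, Gstm2, was higher in both (background 24%). At an unadjusted p under 0.05, 24 were lower (background 10.1%) and none higher (background 4.86%), and DESeq2 called 20 lower (background 5.74%) and none higher (background 0.977%). The median over the tested members was -2.10 (log2), against -0.01 over all genes.

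Hepatocyte markers moved in the same direction. All 14 were lower in ECs under the KO label, 13 of them past the threshold, with a median of -2.93 and a range of -3.98 to -2.51 (log2). Their part in the member differences was not tested. The 7 members above every marker in all EC libraries, Gstk1, Gstm2, Gstm4, Gsto1, Gsto2, Gstt2 and Sult1a1, had a median of -0.26 and a range of -1.35 to 0.20, and none passed. For the 29 other tested members with 1 CPM in WT hepatocytes the median was -2.53, and all 6 calls were among them. Since that split used the same libraries, it is a description. Gstm2 was at 0.20 ± 0.20, Gstk1 at -0.12 ± 0.22 and Sult1a1 at -0.08 ± 0.24 (log2, SE). In bulk libraries fewer cells of a type and less RNA per cell cannot be told apart. The calls depended on single libraries, while the log2 differences of the 6 stayed between -3.69 and -1.80 whichever library was left out: none of the 6 was left without either KO-labelled library (0 calls without number 6 and 0 without number 46), 17 members passed without WT number 34, and 6 without WT number 38, the library with the highest hepatocyte marker median.

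**Figure D4:**
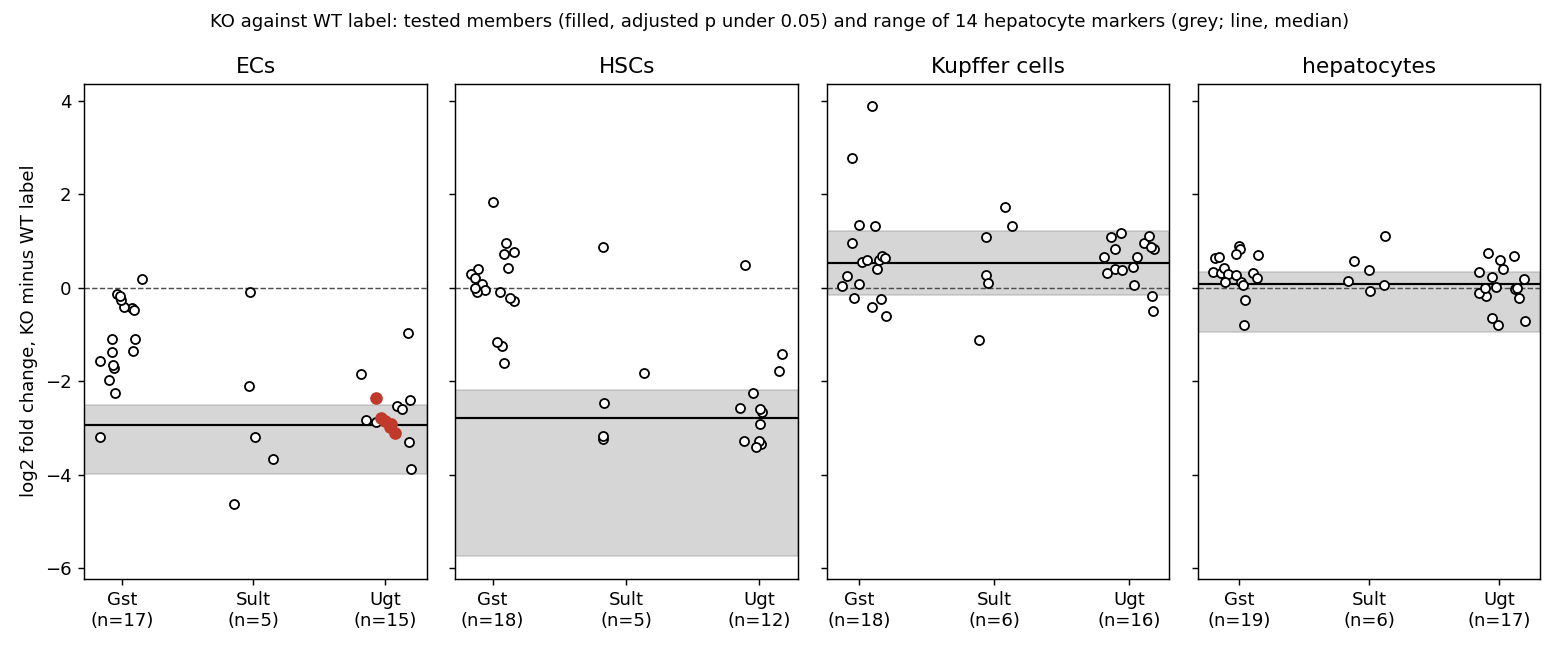
Log2 fold change (KO minus WT label) of each tested member by family and cell type, with filled red points past an adjusted p of 0.05 and open points for the others, and the range (grey) and median (line) of 14 hepatocyte markers. In ECs the 7 Ugt2b points lie between -2.98 and -1.84 and the 7 mu-class Gst points between -3.19 and 0.20, beside a marker median of -2.93.

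In HSCs none of the 35 members tested passed the threshold (background 0% in either direction, 0 genes called of 14390). At an unadjusted p under 0.05 there were 2 higher (background 1.75%) and 13 lower (background 7%), and DESeq2 called 10 (1 higher, background 0.111%, and 9 lower, background 2.71%). The 5 members with the smallest p were Ugt2b36, Sult2a8, Ugt2b5, Ugt2b34 and Ugt3a2, at -2.92 ± 0.39, -3.22 ± 0.46, -2.57 ± 0.38, -3.34 ± 0.61 and -2.66 ± 0.62 (log2, SE, adjusted p = 0.297 to 0.353, edgeR). The 14 hepatocyte markers were all lower, with a median of -2.78, and none passed. In the 14 members above every marker in HSCs the median was 0.26, with a range of -0.27 to 1.85. For the 20 other tested members with 1 CPM in WT hepatocytes the median was -2.52, with a range of -3.41 to 0.97. The 14 were picked for standing above the markers in these same libraries, both labels included, so the split is a description. The 2 members that were higher at an unadjusted p were Gstm2, by 0.77 ± 0.20, and Gstm1, by 0.73 ± 0.22 (log2, SE, adjusted p = 0.387 and 0.436, edgeR). Both were higher in each KO-labelled library than in either WT library, as their values above show, and the marker medians lay the other way. The labels did not overlap for 6 members higher (background 19.9%) and 16 lower (background 20.6%) under the KO label. Gstm2 was the 1 member that DESeq2 called higher.

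Kupffer cells gave no call among 40 members tested (background 0% in either direction), with 4 higher at an unadjusted p (background 3.35%), none lower (background 1.74%), and 1 called higher (background 0.346%) and none lower (background 0.173%) by DESeq2. Without overlap of the labels 18 were higher (background 18.4%) and 2 lower (background 18.8%). Gstm3 had the smallest p. It was at 0.335 and 0.652 CPM under the WT label and at 8.84 and 6.43 CPM under the KO label, a difference of 3.89 ± 0.81 (log2, SE, adjusted p = 0.933, edgeR), and it was the gene that DESeq2 called (adjusted p = 0.0128). Gstm2 followed at 1.35 ± 0.41, Gstm7 at 1.33 ± 0.48, Sult5a1 at 1.33 ± 0.51 and Gstt2 at 0.97 ± 0.42 (log2, SE). Of the 40, 33 were above 0, with a median of 0.60, and hepatocyte markers had a median of 0.54 in the same direction, with 13 of 14 above 0.

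Hepatocytes themselves gave no call among 42 members tested (background 0% in either direction) and none by DESeq2 (background 0.0953% higher and 0.139% lower), with 7 higher (background 2.42%) and 2 lower (background 4.69%) at an unadjusted p. Without overlap of the labels 16 were higher (background 19.9%) and 2 lower (background 20.9%). The smallest p values belonged to Gstm3, at 43.7 and 43.9 CPM in WT and 87.5 and 68.7 CPM under the KO label (0.89 ± 0.19, log2, SE), and to Sult1c2, Gstm4, Ugt2b1 and Ugt2b34, at 1.11 ± 0.31, 0.64 ± 0.18, -0.71 ± 0.21 and -0.79 ± 0.26 (log2, SE, adjusted p = 0.7 for all 5, edgeR). All 7 mu-class genes were above 0, with a median of 0.64, and 6 of 7 Ugt2b genes were below 0, with a median of -0.22. The hepatocyte markers had a median of 0.09.

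The difference of KO effects was tested between cell types. Against Kupffer cells the effect was more negative in ECs for 10 of 45 members (background 1.96%) and in HSCs for 3 (background 0.581%). No member passed between ECs and HSCs (background 0.029% more negative in ECs), where 6 were more negative at an unadjusted p (background 2.78%) and 1 by DESeq2 (background 0.349%). None passed between ECs and hepatocytes (background 0.0639%), where 29 were more negative in ECs at an unadjusted p (background 6.28%) and 17 by DESeq2 (background 3.04%). Comparisons of HSCs and of Kupffer cells with hepatocytes were added after the data were seen. HSCs gave 0 calls (background 0.0697%), with 15 members more negative at an unadjusted p (background 4.96%) and 9 by DESeq2 (background 1.82%). Kupffer cells gave 0 calls (background 0.0116% more positive), with 2 more positive at an unadjusted p (background 5.16%) and 0 by DESeq2 (background 0.534%).

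The other genes of conjugation, 38 measured genes in 8 groups for cofactor supply, microsomal and other transferases, export and regulation, were read from the same fits. In ECs 2 of 35 tested were lower (background 1.97%) and none was higher (background 0.116%), with 15 lower (background 10.1%) and 2 higher (background 4.86%) at an unadjusted p and 8 lower by DESeq2 (background 5.74%). Mgst1, a microsomal glutathione transferase, had 303.9 and 608 CPM in WT and 97.1 and 109.6 CPM under the KO label (-2.13 ± 0.36, log2, SE, adjusted p = 0.0449, edgeR). Glyat, which conjugates glycine to acyl groups, was lower by -2.51 ± 0.43 (log2, SE, adjusted p = 0.0453, edgeR). The 14 hepatocyte markers ranged from -3.98 to -2.51 in the same comparison, and their part in these differences was not tested. In HSCs 0 of 33 passed, with 4 lower at an unadjusted p (background 7%) and 2 called lower by DESeq2 (background 2.71%), and Glyat and Mgst1 had the smallest p, at -2.26 ± 0.56 and -2.16 ± 0.55. In Kupffer cells 0 of 37 passed, with 2 higher (background 3.35%) and 1 lower (background 1.74%) at an unadjusted p and none by DESeq2, so that these counts were close to the background. Txnrd1, a thioredoxin reductase, was at 183 and 104 CPM in WT and 366 and 413 CPM under the KO label (1.36 ± 0.40, log2, SE). Ggt1, which starts glutathione breakdown, was at 1.01 and 2.15 CPM in WT and 0 in both KO-labelled libraries. Hepatocytes gave 0 of 35, with 3 lower at an unadjusted p (background 4.69%) and none by DESeq2 (background 0.0953% higher and 0.139% lower). Gclc, the catalytic subunit of the rate-limiting enzyme of glutathione synthesis, and Abcc3, a conjugate exporter, had the smallest p, at -0.71 ± 0.21 and -0.96 ± 0.35 (log2, SE).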

How the data were processed

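The authors deposited 1 table of raw counts per library, that is, whole reads per Ensembl gene, with no normalization. Their processing notes name Trimmomatic 0.32, HISAT2 2.1.0, HTSeq 0.9.1, edgeR and GRCm38. The strand setting and annotation release are not given in the sources used here, and the series and sample descriptions name different library preparations. The 5 summary lines of each table were left out. Of the identifiers, 99.1% were found in GENCODE M21, which gave positions. Totals were 12872706 to 15690506 reads on genes. Replicates differed by more than sampling noise in all 8 groups, with chi-square per degree of freedom of 29.6 to 109.

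CPM used library totals. Tests used edgeR 4.0.16 in R 4.3.3 (filterByExpr, TMM, quasi-likelihood, Benjamini-Hochberg over all genes tested, threshold 0.05), within 4 libraries for labels and over 16 for cell types and differences of effects. The code was tested on simulated data with 200 genes changed in each comparison. For the labels in ECs, 11.6% of calls fell on unchanged genes, at the threshold of 0.05. In HSCs, Kupffer cells and hepatocytes this share was 3.08%, 8.70% and 10%. In ECs 1.43% of genes changed by 1 (log2) were called, and 73.5% of those changed by 3. Alternatives were DESeq2 1.42.0, RLE factors, library totals, no filter, 1 fit of 16 libraries, WT libraries alone, and leaving out each library. Named members were the top 3 per subfamily in hepatocytes, those higher elsewhere, those past a threshold and the 5 smallest p per cell type. For the pathway genes, those past the threshold and the 2 smallest p per cell type were named. Members and lists were chosen with earlier results of these data known.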

Additional observations from a re-analysis of the deposited data

Results flagged for a closer look

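For 13 member comparisons the effect of the KO label differed between 2 cell types by the test of the difference itself (edgeR quasi-likelihood over 16 libraries, adjusted p under 0.05). The values below are differences of log2 fold changes, with Kupffer cells subtracted. Against ECs, Ugt2b34 differed by -3.95 (-2.98 in ECs and 0.95 in Kupffer cells), Ugt2b5 by -3.12, Ugt2a3 by -3.51, Ugt2b36 by -3.04 and Ugt3a1 by -3.55. Sult1d1 differed by -5.69 and Sult5a1 by -5.00, Gstm1 by -1.65, Gstm7 by -2.98 and Gstz1 by -2.68. The adjusted p-values of these 10 ran from 0.0176 to 0.0441. Against HSCs, Ugt2b36 differed by -3.62, Ugt2b34 by -4.32 and Ugt2b5 by -2.94, with adjusted p-values from 0.0249 to 0.0385. Hepatocyte markers had a median of -2.93 in ECs, -2.78 in HSCs and 0.54 in Kupffer cells under the same contrast, and their part in these differences was not tested. No EC call was left without WT number 38, KO-labelled number 6 or 46, or Kupffer cell number 31 or 43, and no HSC call without HSC WT number 40 or Kupffer cell number 31 or 43. Leaving out any other library gave 3 to 15 calls in ECs and 1 to 5 in HSCs.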

How the results depend on the processing

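No paired analysis was made, because the labels do not name the mouse of each library. No 2 groups have a library number in common, but some numbers of different cell types are neighbours. Numbers 33 (WT hepatocytes) and 34 (WT ECs) are an example, and whether such libraries share a liver is not given. The tests over 16 libraries treated all libraries as independent. For the KO label, 23 members passed in ECs with no filter on low counts, 20 with DESeq2 and 14 with all 16 libraries in one fit, against 6, where 5.26%, 6.72% and 2.46% of all genes did. In HSCs these counts were 10, 10 and 6, against 0 (all genes 2.7%, 2.82% and 1.03%), and in Kupffer cells 1 passed with no filter and 1 with DESeq2 (0.704% and 0.519%). For differences of KO effects, no filter and DESeq2 gave 1 and 1 for ECs against HSCs, 26 and 25 for ECs against Kupffer cells, 23 and 17 for ECs against hepatocytes, 19 and 14 for HSCs against Kupffer cells, and 12 and 9 for HSCs against hepatocytes, and no filter gave 1 for Kupffer cells against hepatocytes. All genes called in these 6 comparisons made up 1.03% to 4.42% with no filter and 0.546% to 6.17% with DESeq2. Among pathway genes, 9 passed in ECs with no filter, 8 with DESeq2 and 5 in one fit, 2 and 2 in HSCs with no filter and DESeq2, and 1 in Kupffer cells and 2 in hepatocytes with no filter. With WT libraries alone 3 members differed between ECs and HSCs and 8 between HSCs and Kupffer cells, with fewer samples in the fit (all genes 10.2% and 21.2%), and with no filter 20 differed between ECs and Kupffer cells (20.2%). With all 4 hepatocyte libraries as the reference, 5 members lay above every marker in Kupffer cells. Where no reason is given, the cause was not tested.

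Leaving out 1 library at a time gave 0 to 17 calls for the KO label in ECs, 14 to 21 for ECs against HSCs, 6 to 14 for ECs against Kupffer cells, 37 to 41 and 39 to 41 for hepatocytes against HSCs and Kupffer cells, and 26 to 30 for HSCs against Kupffer cells. Differences of KO effects ranged from 0 to 15 (ECs and Kupffer cells), 0 to 8 (ECs and hepatocytes), 0 to 5 (HSCs and Kupffer cells) and 0 to 1 (HSCs and hepatocytes), and pathway genes from 0 to 7 in ECs and 0 to 1 in hepatocytes. A group left with 1 library was assumed to vary like the others. With library totals alone, 16 of 270 member differences between cell types changed sign, and in 3 of them (Gsta4, Gstm2 and Gstm5, given in the report) the member was called under one of the scalings. Of the calls between cell types, those of Sult1d1, Ugt2a3 and Ugt2b34 between ECs and Kupffer cells changed sign with WT libraries alone. With 2 libraries a group, a difference that did not pass is not shown to be absent.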
